A study of Mus musculus with 16 samples.

Results

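The 27 genes described here encode parts of the Notch, Hedgehog, Wnt and Hippo signalling pathways. They were chosen by gene symbol from the 760 genes of an nCounter panel of fibrosis genes, as 11 Notch, 6 Hedgehog, 6 Wnt and 4 Hippo members. Livers of 8 mice dosed with EVT0185 at 100 mg/kg by gavage were compared with livers of 8 mice given a vehicle of 0.2% Tween-20 and 1.5% CMC. All 16 mice were male C57BL/6J kept at 29 degrees C on a diet with 0.02% cholesterol, in which fat, mostly palm oil, gave 40 kcal% and fructose 20 kcal%. The labels call this the TN-MASH model, for metabolic dysfunction-associated steatohepatitis, in which a fat-laden liver becomes inflamed and scarred. EVT0185 is, by the title of the series, a compound that inhibits enzymes handling acetyl-CoA. The sources used here give neither the age of the mice nor the length of dosing, and a group fed a normal diet was not analysed here.

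Notch receptors are cut after they bind a Delta-like or Jagged ligand on a neighbouring cell, and the freed fragment switches on target genes with the DNA-binding protein RBPJ and a Mastermind-like coactivator. Hedgehog ligands relieve the block that Patched receptors place on the pathway, which lets GLI transcription factors act, and SUFU holds those factors back. Wnt ligands bind Frizzled receptors and LRP co-receptors, which stabilises beta-catenin, the partner of TCF transcription factors. The Hippo kinases, MST and LATS with their MOB1 activators, keep the coactivators YAP and TAZ out of the nucleus. In liver these pathways are known for bile duct formation, zonation of hepatocytes, control of organ size and activation of stellate cells, the collagen-producing cells of scarring.

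The measurements were molecule counts that the authors normalized and placed on a log2 scale, and levels are given below on the linear scale as normalized counts. The total count recovered per liver was between 1462994 and 1838958 in EVT0185 animals and between 1470453 and 1850800 in vehicle animals. A count error enters each value, and these totals say nothing of how well a single probe captures its RNA, so levels of different genes were not compared. In bulk liver, fewer cells of a type and less RNA per cell cannot be told apart. The hepatocyte markers were abundant in every liver, with a summed level of 361381 to 416395 in EVT0185 animals and 402931 to 549086 in vehicle animals over the 11 markers measured.

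Vehicle animal 7 stood apart for these genes. It was the lowest of its group in 14 of the 20 tested members, and its median deviation from the group mean was -0.49 on the log2 scale over the members and -0.16 over all 612 tested genes. EVT0185 animal 2 was the lowest of its group in 13 of 20 members, with a median deviation of -0.33 over the members and -0.17 over all tested genes. Vehicle 7 was the lowest vehicle animal for 39.4% of all tested genes and EVT0185 2 the lowest EVT0185 animal for 38.6%. The summed smooth muscle and pericyte markers (Acta2, Mylk and Notch3) were 385 in vehicle 7 against 571 to 763 in the other vehicle animals, while its hepatocyte sum lay within their range. In EVT0185 2 that smooth muscle and pericyte sum was 380, against 405 to 575 in the other EVT0185 animals. These sums mainly follow Mylk, which averaged 526 over all livers, against 43.4 for Acta2 and 11.4 for Notch3. They therefore say little of the other markers or of the cells. The hepatocyte sum likewise mainly follows its most abundant markers and is no measure of hepatocyte content. Values without these libraries are given beside the members and lists whose calls they changed.

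**Figure D1:**
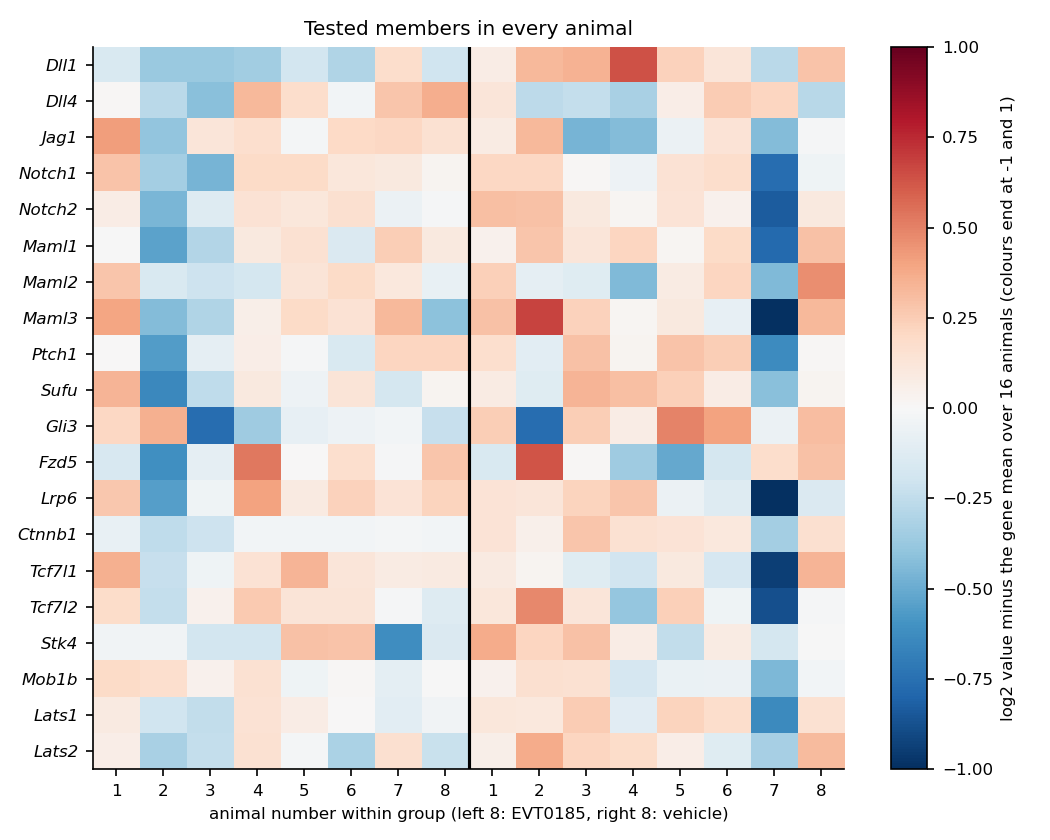
Heat map of the 20 tested members (rows) in the 16 livers (columns, EVT0185 animals left of the line and vehicle animals right of it); colour gives the log2 value minus the mean of that gene over all animals, and ends at -1 and 1. Vehicle 7 is the lowest of its group in 14 rows and EVT0185 2 in 13 rows, and Dll1 in the top row is below its mean in 7 EVT0185 animals and above it in 7 vehicle animals.

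Few of these genes differed between the groups. Of the 27 members, 20 had a mean normalized count of at least 20 and were tested in limma across all 612 genes above that floor. The threshold was an adjusted p of 0.05, two-sided with Benjamini-Hochberg adjustment over the 612 genes. A single member fell, the Notch ligand Dll1, and 0 rose. Among all tested genes 32.7% were called, 11.1% higher and 21.6% lower in EVT0185 livers. At an unadjusted p under 0.05 there were 2 members, Dll1 and Ctnnb1, against 42.5% of all tested genes. The groups overlapped in all 20 tested members, whereas 6.86% of all tested genes had no overlap.

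The differences of the tested members were small and were measured about as closely as those of other genes. Their log2 differences, EVT0185 minus vehicle, ran from -0.44 to 0.22 with a median of -0.02, against a median of -0.10 over all 612 genes. The median size of a difference, whatever its sign, was 0.11 for members and 0.22 for all tested genes, and the median SE was 0.14 and 0.13. The 95% interval of the difference lay within a 1.5-fold change in either direction for 18 of 20 members, all but Dll1 and Gli3, and within a 2-fold change for all 20. Among all tested genes it lay within 1.5-fold for 61.9%.

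These values are relative to the authors' scaling, under which the median gene was lower in EVT0185 livers. After each liver was centred on its median value the median gene differed by 0.01, and after quantile normalization by 0.02. Centring left Dll1 lower and called Jag1 and Tcf7l1 higher, against 12.6% of all tested genes called lower and 16.2% called higher. Quantile normalization called 0 members lower and Jag1, Tcf7l1 and Mob1b higher, against 14.5% and 17.3% of all tested genes, 31.9% in both directions. The sign of Notch2, Maml1, Maml3, Ptch1 and Lats1 turned under both scalings and that of Sufu under quantile normalization, so no direction is given for these genes.

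**Figure D2:**
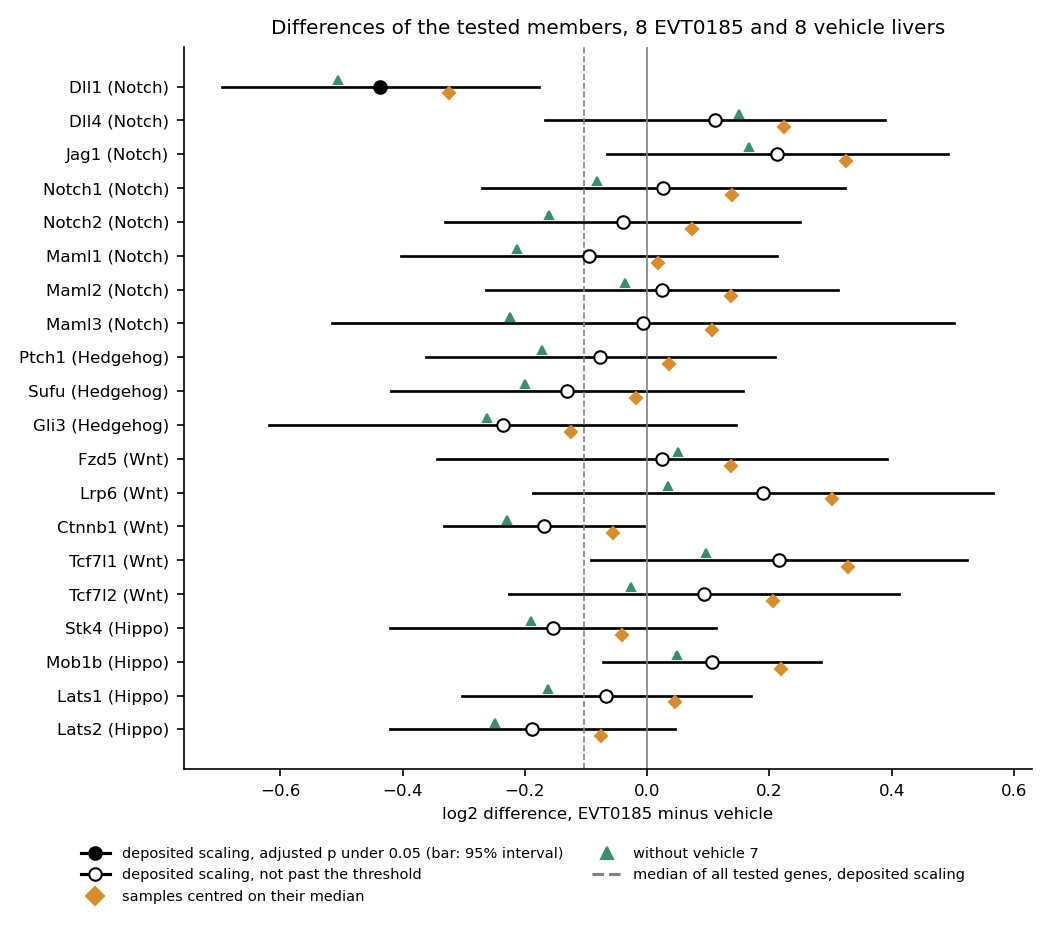
Log2 difference, EVT0185 minus vehicle, of each of the 20 tested members on the horizontal axis, by pathway; circles with bars are the limma estimate and its 95% interval, filled where the adjusted p is under 0.05, diamonds the estimate after centring each liver on its median and triangles the estimate without vehicle 7. Dll1, at -0.44, is the only filled circle, the dashed line marks the median of all tested genes at -0.10, and diamonds lie to the right of circles in every row.

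The Notch ligand Dll1, a Delta-like ligand that activates Notch receptors on neighbouring cells, was lower in EVT0185 livers. Its lowest, median and highest normalized counts were 24.7, 27.0 and 36.1 in EVT0185 animals and 26.5, 38.3 and 49.7 in vehicle animals. All 8 EVT0185 animals were below the vehicle median and 4 were below every vehicle animal, and the groups overlapped through EVT0185 7 at 36.1 and vehicle 7 at 26.5. The next lowest vehicle animal had 33.7. Dll1 fell 1.35-fold (log2 -0.44 with an SE of 0.12, limma adjusted p = 0.0114), with a 95% interval from 1.13-fold to 1.62-fold lower. The levels were low, and the SD that counting alone gives, 0.26 on the log2 scale, was no smaller than the SD between animals of a group, 0.22.

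The call of Dll1 did not need the libraries that stood apart. Without vehicle 7 the log2 difference was -0.51 (limma adjusted p = 0.00205) and without both low libraries -0.48 (limma adjusted p = 0.00419), a setting in which 34.8% of all tested genes were called. Leaving out any other animal kept the call. It also stood after median centring (log2 -0.32, limma adjusted p = 0.0471). It ended after quantile normalization (log2 -0.24, limma adjusted p = 0.174) and with the animal number added to the fit as a block (limma adjusted p = 0.0504). Over the 27 alternatives that tested Dll1, 25 called it, with adjusted p from 0.00205 to 0.174.

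The other measured ligands did not fall with Dll1. Dll4, a Delta-like ligand of endothelial cells, had 57.9, 82.9 and 99.6 (lowest, median, highest) in EVT0185 animals and 61.8, 73.4 and 92.3 in vehicle animals. The groups covered nearly the same range, and the log2 difference was 0.11 (SE 0.13, limma adjusted p = 0.568). Jag1, the Jagged ligand whose loss causes the bile duct paucity of Alagille syndrome in humans, had 83.7, 123 and 147 in EVT0185 animals and 79.6, 107 and 138 in vehicle animals. Of 8 EVT0185 animals 7 lay above the vehicle median for Jag1, and the exception was EVT0185 2. Its log2 difference was 0.21 (SE 0.13, limma adjusted p = 0.238), and 0.33 after median centring (limma adjusted p = 0.0327) and 0.35 after quantile normalization (limma adjusted p = 0.0291). Jag2, another Jagged ligand, lay under the floor at 6.2 to 16.1 in EVT0185 animals and 2.66 to 13.8 in vehicle animals.

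**Figure D3:**
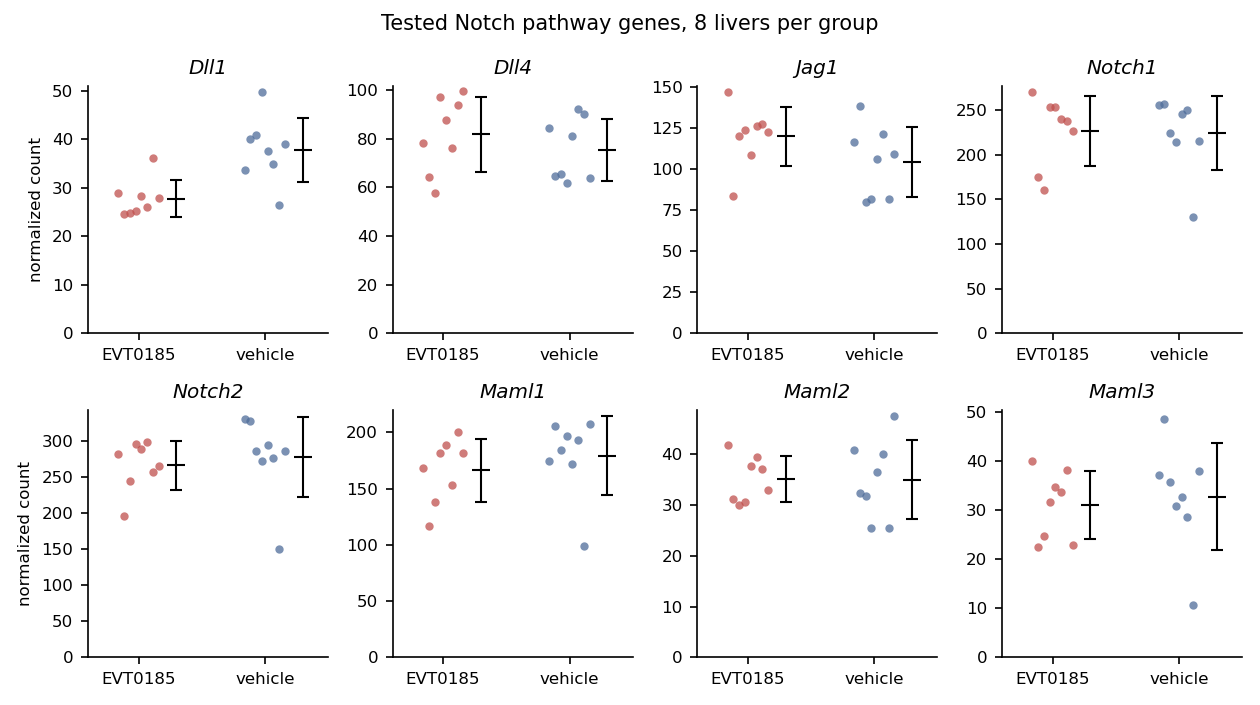
Normalized count of each of the 8 tested Notch pathway genes in 8 EVT0185 livers (left) and 8 vehicle livers (right), points being animals in the order of their numbers and bars the mean with SD. All 8 EVT0185 animals are below the vehicle median for Dll1, while vehicle 7 is the low point for Notch1, Notch2, Maml1 and Maml3.

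The bases upstream of the transcription start are shown for these 3 ligands, since Dll1 moved apart from the other 2, and for the TCF factor Tcf7l1, described below, as an example of a match. They are RefSeq sequence of build GRCm38.p6, 250 bases ending just before the start and written in the direction of the gene. Capitals mark a match to letters searched on both strands: TGGGAA of RBPJ, CTTTGAA and CTTTGAT of TCF, GGAATG of TEAD, the partner of YAP, and GACCACCCA of GLI.
Dll1, chr17:15376933-15377182, minus strand: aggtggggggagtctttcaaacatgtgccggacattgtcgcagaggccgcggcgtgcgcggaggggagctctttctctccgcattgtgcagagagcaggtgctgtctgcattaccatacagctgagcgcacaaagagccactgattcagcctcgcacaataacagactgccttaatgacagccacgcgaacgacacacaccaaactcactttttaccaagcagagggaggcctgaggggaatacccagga
Dll4, chr2:119325534-119325783, plus strand: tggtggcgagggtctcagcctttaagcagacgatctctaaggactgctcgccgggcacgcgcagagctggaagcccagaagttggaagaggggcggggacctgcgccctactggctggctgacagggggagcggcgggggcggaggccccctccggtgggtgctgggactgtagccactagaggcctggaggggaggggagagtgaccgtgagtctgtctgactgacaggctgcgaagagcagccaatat
Jag1, chr2:137116521-137116770, minus strand: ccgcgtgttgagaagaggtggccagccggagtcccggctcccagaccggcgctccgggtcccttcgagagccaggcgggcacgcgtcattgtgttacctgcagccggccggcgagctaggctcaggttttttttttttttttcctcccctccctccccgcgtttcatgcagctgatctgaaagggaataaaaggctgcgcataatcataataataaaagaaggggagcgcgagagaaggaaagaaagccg
Tcf7l1, chr6:72789046-72789295, minus strand: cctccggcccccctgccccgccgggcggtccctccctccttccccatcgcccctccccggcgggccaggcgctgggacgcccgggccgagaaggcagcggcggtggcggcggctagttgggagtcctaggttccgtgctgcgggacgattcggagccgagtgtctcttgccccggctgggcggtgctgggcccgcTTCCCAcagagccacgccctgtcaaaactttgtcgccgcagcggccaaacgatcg
The Tcf7l1 window holds TTCCCA, the reverse complement of TGGGAA, and the 3 ligand windows hold none of these letters. RefSeq gives Dll1 a second start inside the gene, whose window held none either. Windows were found for 24 of the 27 members, 29 windows in all. TGGGAA was in 3 of the 29, against 21.6% of all 32851 windows, and GGAATG was in 2, those of Notch1 and Notch4, against 12.6%. CTTTGAT was in 1, of Maml1, against 3.21%, and the letters CTTTGAA and GACCACCCA were in 0, against 4.46% and 0.225%. TGGGAA was in windows of Maml2, Maml3 and Tcf7l1. A match of letters is not a measured site.

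The ratio of 2 genes within an animal does not depend on how animals are scaled, except under quantile normalization. Ratios among the 3 ligands and among 3 nuclear Wnt genes were therefore set against each other between groups in an exact permutation test (two-sided, 12870 assignments), with adjustment over these 6 ratios. The test and the genes set in ratio were chosen after the values were seen. Jag1 and Tcf7l1 had the highest log2 differences of the tested members. Dll1 and Ctnnb1, both lower, were the only members with an unadjusted p under 0.05. Such a choice favours a small p, which the adjustment over these ratios does not allow for. The log2 ratio of Jag1 to Dll1 was 1.76, 2.20 and 2.35 (lowest, median, highest) in EVT0185 animals and 0.72, 1.56 and 1.80 in vehicle animals. All EVT0185 animals but EVT0185 2 lay above every vehicle animal. The ratio was 1.57-fold higher in EVT0185 livers (log2 0.65, SE 0.17, exact permutation adjusted p = 0.00513). It was 0.60 under quantile normalization (exact permutation adjusted p = 0.00466) and 0.54 to 0.70 when each animal was left out in turn. Since the probes differ, the ratio has no meaning as an amount, only its difference between groups has.

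Dll4 was not called itself, and its ratio to Dll1 shares the lower Dll1 with the Jag1 ratio, so it is not a separate result. The log2 ratio of Dll4 to Dll1 averaged 1.55 ± 0.25 in EVT0185 and 1.00 ± 0.48 in vehicle animals (SD, n = 8 each), a difference of 0.55 (exact permutation adjusted p = 0.0277). That call ended under quantile normalization (exact permutation adjusted p = 0.0508) and without EVT0185 4 or 8 or vehicle 3, 4 or 8 (adjusted p up to 0.0559). The log2 ratio of Jag1 to Dll4 averaged 0.56 ± 0.30 in EVT0185 and 0.45 ± 0.36 in vehicle animals, a difference of 0.10 (SE 0.17, exact permutation adjusted p = 0.555, n = 8 each).

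**Figure D4:**
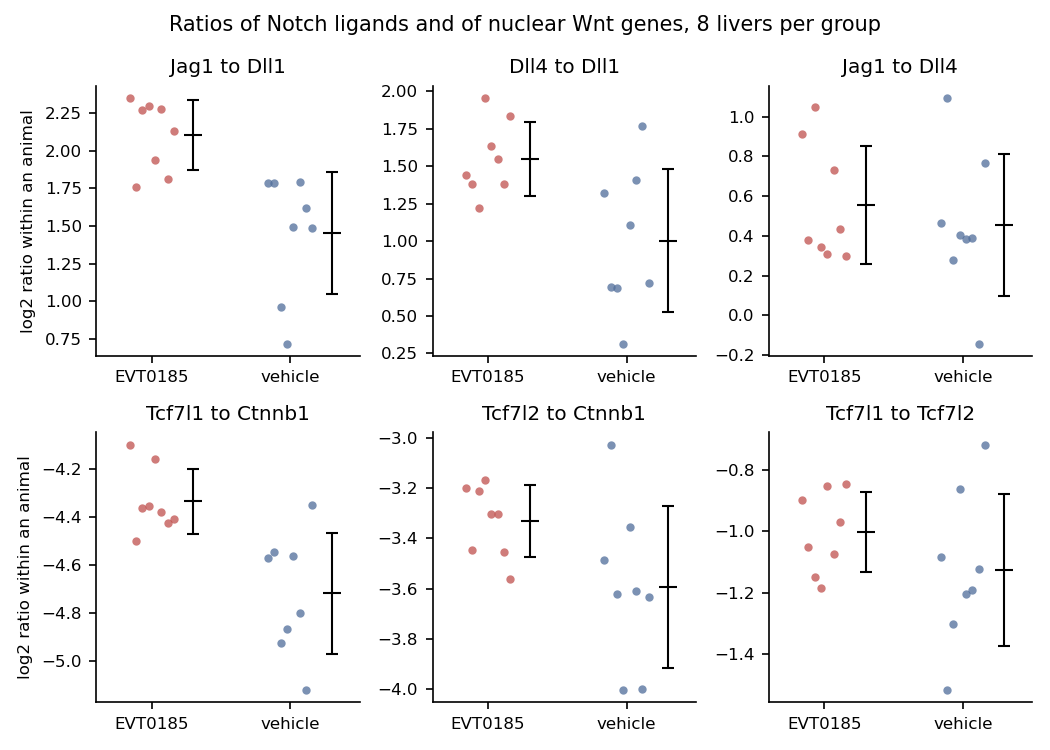
Log2 ratio of 2 genes in the same liver, in 8 EVT0185 livers (left) and 8 vehicle livers (right) per panel; points are animals and bars the mean with SD, and each vertical axis covers its own range. The Jag1 to Dll1 panel has 7 of 8 EVT0185 animals above every vehicle animal, and the Tcf7l1 to Ctnnb1 panel has all 8 above the vehicle median.

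The Notch receptors were not called. Notch1 had 160, 239 and 270 (lowest, median, highest) in EVT0185 animals and 130, 235 and 256 in vehicle animals, a log2 difference of 0.03 (SE 0.14, limma adjusted p = 0.901). Notch2, the receptor that pairs with Jag1 in bile duct formation, had 195, 274 and 299 in EVT0185 animals and 151, 286 and 330 in vehicle animals. Vehicle 7 lay far below the rest of its group for both genes, with the next vehicle animal at 214 for Notch1 and 272 for Notch2. The log2 difference of Notch2 was -0.04 (95% interval -0.33 to 0.25) and -0.16 without vehicle 7 (limma adjusted p = 0.152). The SD of the vehicle group for Notch2 was 0.36 on the log2 scale with vehicle 7 and 0.11 without it, and that of the EVT0185 group was 0.20. Notch3, a receptor of pericytes and smooth muscle, averaged 10.5 ± 2.83 in EVT0185 and 12.3 ± 3.49 in vehicle animals (SD, n = 8 each). Notch4, an endothelial receptor, averaged 16.1 ± 3.62 in EVT0185 and 18.8 ± 3.62 in vehicle animals, and both receptors lay under the floor.

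The 3 Mastermind-like coactivators, which complete the Notch transcription complex, were not called either. Maml1 averaged 166 ± 28.0 in EVT0185 and 179 ± 35.0 in vehicle animals, Maml2 35.1 ± 4.54 and 35.0 ± 7.75, and Maml3 31.1 ± 6.88 and 32.8 ± 10.8 in the same order (SD, n = 8 each). Their log2 differences were -0.10, 0.02 and -0.01, and without vehicle 7 -0.21, -0.04 and -0.23. Maml3 had 10.6 in vehicle 7 and at least 28.7 in the other vehicle animals, so its interval, -0.52 to 0.50, was among the widest.

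Of 11 further genes that process or modulate Notch, 1 fell and 0 rose, against 21.6% of all tested genes called lower. Itch, a ubiquitin ligase with Notch among its substrates, fell 1.20-fold (log2 -0.27 with an SE of 0.09, limma adjusted p = 0.0364). That call ended under both other scalings and without any animal other than EVT0185 4 or 8 or vehicle 1 or 7 (limma adjusted p up to 0.0733). Without vehicle 7, and also without both low libraries, 4 of the 11 were called lower, against 27% of all tested genes in the first setting and 140 of 612 in the second. Adam17, a protease that can cut Notch, differed by -0.18 (SE 0.09, limma adjusted p = 0.152). The gamma-secretase subunits Psenen, Ncstn and Psen2 differed by -0.12, -0.06 and 0.04, and Numb, an inhibitor of Notch, by 0.02. Of 2 measured genes listed as Notch targets, Spp1, which encodes osteopontin, fell 1.92-fold (log2 -0.94 with an SE of 0.34, limma adjusted p = 0.0427), whereas Cdkn1a differed by -0.39 (limma adjusted p = 0.144). The call of Spp1 ended after median centring (limma adjusted p = 0.0701) and quantile normalization, and without EVT0185 2, 3, 4 or 8 or vehicle 1, 5, 6, 7 or 8 (limma adjusted p up to 0.0896), and without both low libraries (limma adjusted p = 0.113).

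Of 6 markers of endothelial cells, a cell type with active Notch signalling, 0 were called, and 1 was called lower without vehicle 4. Their summed level was 848 to 1136 in EVT0185 and 762 to 1216 in vehicle animals. Cd34 differed most, by -0.42 (95% interval -0.86 to 0.01, limma adjusted p = 0.132). Only 2 of the cholangiocyte markers were measured, Spp1 and Cftr, with Cftr at 4.82 to 11.4 in EVT0185 and 5.19 to 12.4 in vehicle animals. The part of bile duct cells in these results was not tested.

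The Hedgehog members were the least measurable, with 3 of 6 above the floor and 0 called. Ptch1, the receptor and itself a target of the pathway, had 79.4, 117 and 135 (lowest, median, highest) in EVT0185 animals and 75.3, 125 and 143 in vehicle animals. Its lowest animals were EVT0185 2 and vehicle 7, the rest of both groups overlapped, and the log2 difference was -0.08 (SE 0.14, limma adjusted p = 0.703). Sufu, the inhibitor that binds GLI proteins, averaged 63.6 ± 12.3 in EVT0185 and 69.2 ± 11.2 in vehicle animals (SD, n = 8 each), a log2 difference of -0.13 (95% interval -0.42 to 0.16). Gli3, mainly a repressor of Hedgehog targets, averaged 19.8 ± 4.47 in EVT0185 and 23.5 ± 5.38 in vehicle animals. Its mean over all livers was 21.6, so it passed the floor of 20 only through the vehicle group. Of 8 EVT0185 animals 7 were below the vehicle median of Gli3, and the log2 difference was -0.24 (95% interval -0.62 to 0.15, limma adjusted p = 0.348).

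The ligand and the activating GLI factors had values too low to test with the floor. Ihh, Indian hedgehog, had 1.88, 9.71 and 12.4 (lowest, median, highest) in EVT0185 animals and 9.23, 11.1 and 15.9 in vehicle animals. In EVT0185 animals 4 values lay below every vehicle animal and the other 4 among them. Gli2, the main activator, had 4.37, 6.99 and 11.8 in EVT0185 animals and 5.13, 9.21 and 14.8 in vehicle animals. Gli1, an activator and target, had 10.2, 17.5 and 23.6 in EVT0185 animals and 9.53, 17.4 and 20.4 in vehicle animals. With no floor, a fit over 760 genes of which 25.5% were called, the log2 difference was -0.56 for Ihh, -0.43 for Gli2 and 0.10 for Gli1 (limma adjusted p = 0.215, 0.209 and 0.764). The 9 measured T and NK cell markers were all under the floor and summed to 99.1 to 143 in EVT0185 and 96.8 to 146 in vehicle animals. Control probes were not analysed here, so the background of a probe is not known.

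Of 9 measured targets and modulators of Hedgehog, 8 were tested, 2 fell and 0 rose, near the 21.6% of all tested genes called lower. Gas1, a cell-surface co-receptor for Hedgehog ligands, was 1.49-fold lower, with 141, 190 and 274 (lowest, median, highest) in EVT0185 animals and 231, 294 and 334 in vehicle animals (log2 -0.58, SE 0.12, limma adjusted p = 0.00146). Gas1 was called in every alternative that was run. The other was Spp1, given above as a listed Notch target, whose call ended under both other scalings. Prkaca and Prkacb, subunits of the kinase that phosphorylates GLI proteins, differed by -0.09 and -0.15, and the GLI kinase Csnk1a1 by -0.03. Cdon, another co-receptor, was under the floor at 14.0 to 18.9 in EVT0185 and 12.4 to 28.6 in vehicle animals.

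Among Wnt genes 5 of 6 were tested and 0 were called. Ctnnb1, which encodes beta-catenin, had 1335, 1562 and 1574 (lowest, median, highest) in EVT0185 animals and 1257, 1753 and 1935 in vehicle animals. All 8 EVT0185 animals were below the vehicle median, and vehicle 7 was the only vehicle animal under 1574. The log2 difference was -0.17 (SE 0.08, 95% interval -0.33 to -0.01, limma adjusted p = 0.106). It was called by the exact rank-sum test (adjusted p = 0.036), with sample weights (limma adjusted p = 0.00454), without vehicle 7 (log2 -0.23, limma adjusted p = 0.00323) and without both low libraries (log2 -0.21, limma adjusted p = 0.00497). Without vehicle 7, 38.6% of all tested genes were called, and 34.8% without both low libraries. Sample weights called 171 of all 612 tested genes lower, and the rank-sum test 125. After median centring the log2 difference of Ctnnb1 was -0.06 (limma adjusted p = 0.531), and -0.08 with both low libraries left out as well (limma adjusted p = 0.237).

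The TCF factors that bind beta-catenin were not lower. Tcf7l1, in most settings a repressor of Wnt targets, had 59.0, 74.5 and 88.4 in EVT0185 animals and 36.1, 67.1 and 87.4 in vehicle animals. Its log2 difference was 0.22 (SE 0.15, limma adjusted p = 0.279), 0.10 without vehicle 7, and 0.33 after median centring (limma adjusted p = 0.0233). Tcf7l2, the TCF factor tied to metabolic zonation in liver, had 122, 154 and 174 in EVT0185 animals and 78.5, 150 and 202 in vehicle animals, a log2 difference of 0.09 (SE 0.15) that was -0.03 without vehicle 7. The vehicle range of Tcf7l2 enclosed the EVT0185 range. Within an animal, the log2 ratio of Tcf7l1 to Ctnnb1 was -4.50, -4.37 and -4.10 (lowest, median, highest) in EVT0185 animals and -5.12, -4.69 and -4.35 in vehicle animals. It was 1.31-fold higher in EVT0185 livers (log2 0.38, SE 0.10, exact permutation adjusted p = 0.00513) and 0.35 without both low libraries (exact permutation adjusted p = 0.00699). As with the ligand ratios, these genes were chosen after their values were seen, which the p-values do not allow for. The ratio of Tcf7l2 to Ctnnb1 differed by 0.26 (exact permutation adjusted p = 0.0839). Its adjusted p was 0.00839 without vehicle 2, 0.160 without vehicle 7 and 0.158 without both low libraries. The ratio of Tcf7l1 to Tcf7l2 differed by 0.12 (exact permutation adjusted p = 0.285).

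The Wnt receptors gave no call. Lrp6, the co-receptor, had 253, 421 and 492 in EVT0185 animals and 163, 380 and 450 in vehicle animals. The low values were again EVT0185 2 and vehicle 7, and the log2 difference was 0.19 (SE 0.18, limma adjusted p = 0.462), 0.03 without vehicle 7. With both low libraries left out and livers centred it was 0.25 (limma adjusted p = 0.0452), a setting in which Jag1 and Tcf7l1 were also called higher and 29.7% of all tested genes were called. Fzd5, a Frizzled receptor, averaged 20.4 ± 4.60 in EVT0185 and 20.2 ± 5.38 in vehicle animals (SD, n = 8 each), a log2 difference of 0.02. Fzd2, another Frizzled receptor, lay under the floor, with 4.98, 10.6 and 17.6 in EVT0185 animals and 9.94, 14.8 and 20.0 in vehicle animals. Of 8 EVT0185 animals 4 were below every vehicle animal for Fzd2, and with no floor its log2 difference was -0.73 (SE 0.28, limma adjusted p = 0.0584).

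Of 9 modulators of the Wnt pathway 1 fell, against 21.6% of all tested genes called lower. Plcb3, a phospholipase of the calcium branch, fell 1.21-fold (log2 -0.28 with an SE of 0.10, limma adjusted p = 0.0332), and 0 rose. Its call ended under both other scalings and without EVT0185 2 or 3 or vehicle 3, 4, 5 or 6 (limma adjusted p up to 0.0665). Without vehicle 7, 3 of the 9 were called lower, and likewise without both low libraries, beside the same shares of all tested genes as given for the Notch list. Gsk3b and Apc, of the complex that marks beta-catenin for destruction, differed by 0.11 and -0.06. Of 7 measured genes listed as beta-catenin targets 5 were tested and 0 were called. They include 2 pericentral genes that beta-catenin maintains in mouse hepatocytes: Cyp2e1, at a log2 difference of -0.10 (95% interval -0.36 to 0.15), and Cyp1a2, at 0.07 (95% interval -0.33 to 0.47).

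All 4 Hippo members were tested and 0 were called. Stk4, which encodes the kinase MST1, had 70.2, 101 and 132 (lowest, median, highest) in EVT0185 animals and 91.0, 114 and 139 in vehicle animals, a log2 difference of -0.15 (SE 0.13, limma adjusted p = 0.388). Mob1b, the adaptor that activates LATS kinases, had 344, 373 and 419 in EVT0185 animals and 268, 356 and 410 in vehicle animals. Of 8 EVT0185 animals 7 lay above the vehicle median of Mob1b, and its log2 difference was 0.11 (SE 0.08, limma adjusted p = 0.369), 0.05 without vehicle 7 and 0.20 after quantile normalization (limma adjusted p = 0.0424). The LATS kinases phosphorylate YAP and TAZ. Lats1 had 249, 292 and 326 in EVT0185 animals and 190, 323 and 352 in vehicle animals, and Lats2 had 145, 167 and 203 in EVT0185 animals and 144, 198 and 235 in vehicle animals. Of 8 EVT0185 animals 7 were below the vehicle median for Lats1 and 6 for Lats2, with log2 differences of -0.07 (95% interval -0.30 to 0.17) and -0.19 (95% interval -0.42 to 0.04). Without vehicle 7 they were -0.16 and -0.25 (limma adjusted p = 0.0868 and 0.0549), beside a median of -0.15 over all tested genes. After median centring Lats1 differed by 0.05 and Lats2 by -0.08 (limma adjusted p = 0.662 and 0.600).

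**Figure D5:**
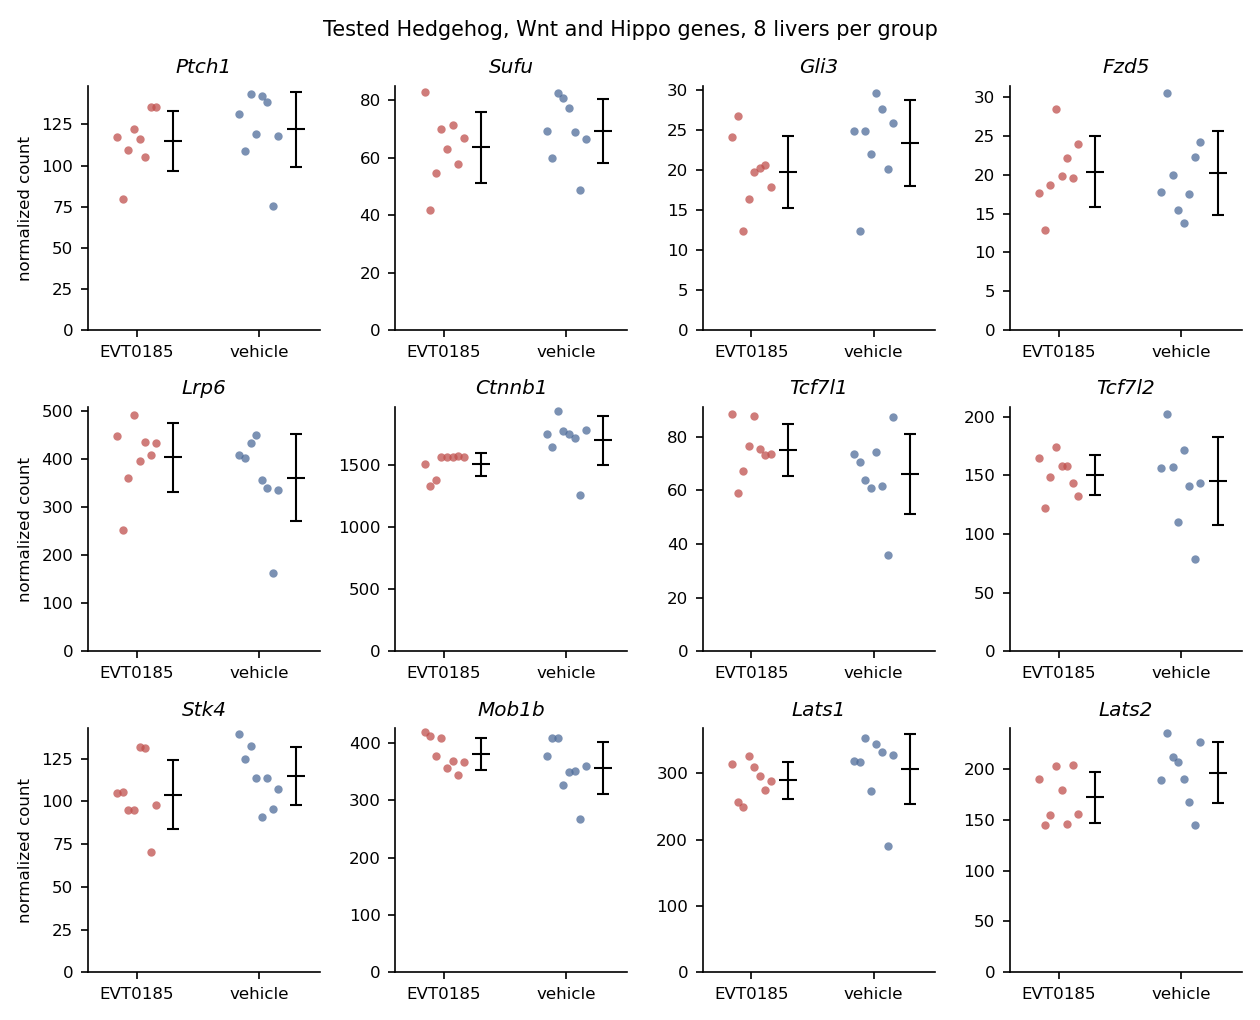
Normalized count of each of the 12 tested Hedgehog, Wnt and Hippo genes in 8 EVT0185 livers (left) and 8 vehicle livers (right), points being animals in the order of their numbers and bars the mean with SD. The groups overlap in every panel, all EVT0185 values of Ctnnb1 lie below the vehicle median, and vehicle 7 is the lowest vehicle point for Ptch1, Sufu, Lrp6, Ctnnb1, Tcf7l1, Tcf7l2, Mob1b, Lats1 and Lats2.

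Of 6 measured genes around the Hippo kinases 0 were called, among them the scaffold Wwc1, at a log2 difference of -0.05, Amotl1, which holds YAP at cell junctions, at -0.02, and Ywhae, a 14-3-3 protein of the family that retains YAP in the cytoplasm, at 0.06. Of 6 genes listed as YAP and TAZ targets 2 fell and 0 rose. Axl, a receptor tyrosine kinase, was 1.35-fold lower, with 161, 206 and 237 (lowest, median, highest) in EVT0185 animals and 213, 268 and 436 in vehicle animals (log2 -0.43, SE 0.13, limma adjusted p = 0.0192). Thbs1, thrombospondin 1, was 1.60-fold lower, with 10.6, 19.1 and 23.6 in EVT0185 animals and 22.9, 29.3 and 38.2 in vehicle animals (log2 -0.68, SE 0.17, limma adjusted p = 0.00477). The mean of Thbs1 over all livers was 23.8, little above the floor. Its EVT0185 median lay under the floor and every vehicle value above it, so Thbs1 was tested only through its vehicle values. Ccn2, a matrix protein induced by YAP and also by TGF-beta, differed by -0.48 (SE 0.19, limma adjusted p = 0.0612) and Amotl2 by 0.22. The listed targets thus did not all differ in 1 direction. The 2 of 6 called lower, 1 of them Thbs1, stand beside the 21.6% of all tested genes called lower.

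Some markers of liver cell types differed between the groups, beside the 21.6% of all tested genes that were called lower. Of 8 stellate and fibroblast markers 3 fell, Col1a1, Col1a2 and Col3a1, all collagen genes, and 0 rose. The log2 differences of all 8 were negative. Reln differed by -0.41 and Vim by -0.29 (limma adjusted p = 0.0641 and 0.0740). Pdgfrb differed by -0.27, Acta2 by -0.21 and Ddr2 by -0.06 (limma adjusted p = 0.297, 0.571 and 0.753). The list had a summed level of 1014 to 1945 in EVT0185 and 1398 to 3019 in vehicle animals. The summed smooth muscle and pericyte markers were 380 to 575 in EVT0185 and 385 to 763 in vehicle animals, and 1 of the 2 tested, Mylk, fell (limma adjusted p = 0.0405). That call ended without EVT0185 1, 2, 3 or 6 or vehicle 1, 2, 3, 5, 6 or 8 (limma adjusted p up to 0.0831). Of 6 macrophage markers 2 fell, Cd68 and Ccr2, and 0 rose past the threshold. Marco and Cd163 differed by 0.51 and 0.29 (limma adjusted p = 0.540 and 0.673), and Csf1r and Cd14 by -0.14 each. The macrophage sums were 982 to 1331 in EVT0185 and 808 to 2776 in vehicle animals, with medians of 1177 and 1176. The call of Cd68 ended under both other scalings, without both low libraries (limma adjusted p = 0.0872) and without EVT0185 1, 2 or 8 or vehicle 5 or 6 (limma adjusted p up to 0.0614). Of 11 hepatocyte markers 7 fell, against 4 after median centring and 6 without both low libraries. In the same order, 132, 77 and 140 of all 612 tested genes were called lower. No marker was at 0 in any group. The part of cell makeup in the differences of Dll1, Gas1, Axl and Thbs1 was not tested.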

How the data were processed

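RNA of 16 mouse livers was counted with an nCounter panel of fibrosis genes. The deposited values are log2 of counts that the authors normalized with nSolver 4.0, per the submitters' processing notes; the sources used here do not give its settings. Multiplying the linear values of a liver by a constant gave whole counts within 0.1 for 100% of genes, which gave the total count per liver, 1462994 to 1850800. No pair of livers of a group agreed within counting noise.

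Members and gene lists were chosen by symbol with earlier results of these data known. The 612 of 760 genes with a mean normalized count of at least 20 were tested with limma 3.58.1 in R 4.3.3 (group as the only term, variance trend, two-sided, Benjamini-Hochberg adjustment over all 612). The rule for named genes took every member and, of each list, the genes past the threshold (at most 5) and the summed level of cell type markers; list genes named without a call were chosen for their role after their values were seen. The method was tested on simulated data. Alternatives were median centring, quantile normalization, no floor, a floor of 100, a pseudocount of 20, a replicate block, sample weights, voom on the recovered counts, no variance trend, an exact rank-sum test and each animal left out. Leaving out both low libraries, with and without centring, and the ratios within animals were added after the data were seen. The labels call the 8 samples of a group biological replicates. RefSeq windows of GRCm38.p6 were matched by symbol. Results for some genes of the lists are not reported here.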

Additional observations from a re-analysis of the deposited data

Results flagged for a closer look

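In 16 of the 54 groups of 8 animals that the 27 members give, 1 animal stood apart from the other 7 on the log2 scale. Its gap to its nearest neighbour, as a share of the whole log2 range, was above Dixon's 95% critical value. On the linear scale these shares differ. Chance alone gives about 1 group in 20 where values follow a normal distribution. The groups come from the same livers and are not independent, so their count is not a test. Of the 16, 9 were vehicle 7 at the low end: Notch1 at 0.734 of the range, Notch2 at 0.751, Maml1 at 0.748, Maml3 at 0.655, Ptch1 at 0.569, Lrp6 at 0.713, Ctnnb1 at 0.627, Tcf7l1 at 0.589 and Lats1 at 0.586. EVT0185 2 was the low animal for Notch2, at 0.531, and for Lrp6, at 0.528. EVT0185 7 was the high animal for Dll1, at 0.591, and without it Dll1 stayed called. Among genes of low counts, the lowest animal was EVT0185 5 for Ihh, at 0.596, vehicle 1 for Jag2, at 0.602, and vehicle 2 for Gli3, at 0.557, and vehicle 3 was the highest for Ihh, at 0.539.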

How the results depend on the processing

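Most results kept their direction and their side of the threshold, and the main exceptions came from the scaling and from vehicle 7. Median centring called 1 Notch and 1 Wnt member higher, 2 in all, and quantile normalization 1 Notch, 1 Wnt and 1 Hippo member, 3 in all, with 0 lower. With both low libraries left out and livers centred, 1 Notch and 2 Wnt members were called higher, 3 in all. The count of members called lower was 0 with a floor of 100, where Dll1 was not tested, and 0 with the replicate block (Dll1 adjusted p = 0.0504 in limma). It was 2 with sample weights, the exact rank-sum test or both low libraries left out, 1 of them the Wnt gene Ctnnb1, and 1 to 2 when each animal was left out, the Wnt count being 0 to 1. In the same order of settings, 171, 125 and 140 of all 612 tested genes were called lower, and 103 to 165 when each animal was left out. Over all tested genes, 68 higher and 132 lower became 99 and 77 after centring, 106 and 89 after quantile normalization, and 111 and 71 with both low libraries left out and livers centred. So 34% of the calls were higher as deposited, 56.3% after centring and 54.4% after quantile normalization.

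Directions turned only for members with small differences. They were 0.073 for Notch2, 0.018 for Maml1, 0.11 for Maml3, 0.036 for Ptch1 and 0.046 for Lats1 after centring, and 0.082, 0.0038, 0.18, 0.074 and 0.041 for the same genes, with 0.066 for Sufu, after quantile normalization. Sample weights gave -0.0018 for Notch1, -0.040 for Maml2 and -0.021 for Tcf7l2. Both low libraries left out gave -0.031 for Notch1 and -0.013 for Maml2, and with centring 0.022 for Notch2, 0.023 for Ptch1 and 0.0036 for Sufu. Leaving out each animal gave -0.081 to 0.095 for Notch1, -0.16 to 0.022 for Notch2, -0.037 to 0.093 for Maml2, -0.23 to 0.089 for Maml3, -0.049 to 0.12 for Fzd5 and -0.027 to 0.17 for Tcf7l2. The cause was not tested.

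Animals of the same number correlated at -0.14 to 0.46, with 5 of 8 pairs over 0.1 and 1 of 8 animals closest to its own number, so the numbers were not taken as pairs, and the replicate block called 190 genes in place of 200. Counting noise limits the genes of low counts, and 7 members lay under the floor.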
